A study of Mus musculus with 13 samples.

Results

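The 10 genes described here are transcription factors and associated regulators of naive pluripotency, the state of mouse embryonic stem cells (mESCs) that corresponds to the preimplantation epiblast: Nanog, Klf2, Klf4, Klf5, Esrrb, Tfcp2l1, Tbx3, Zfp42, Prdm14 and Dppa3. They were taken by gene symbol from the deposited RNA counts, where all 10 were found among 24421 genes. The rule that chose them uses no measured value, although earlier results of these data were known. RNA was measured in F1-2.1 mESCs, a line derived from a CAST/Ei x 129/Sv/Jae cross, in clone A2 with a Tet-on CTCF S224E transgene. CTCF is the zinc finger protein that binds insulator sites and domain borders, and S224E puts a glutamic acid in place of serine as a mimic of phosphorylation. The cells were grown for 6 days with 1 μg/mL doxycycline (dox), the drug that switches the transgene on (S224E +dox, 2 libraries), or without it (S224E −dox, 2 libraries), in both cases over irradiated fibroblast feeders in serum with LIF. All 4 libraries carry the transgene and the endogenous Ctcf gene, and all come from 1 clone. RNA libraries with dox and no transgene, or with a wild-type transgene, were not analysed here, so the effect of S224E and that of dox cannot be told apart.

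In serum and LIF, the cytokine LIF acts through Stat3, which drives Klf4 and Tfcp2l1 among other targets, while Esrrb, Nanog and Tbx3 maintain the same network by further inputs. The naive factors bind one another's enhancers, so that several of them can be removed singly without loss of self-renewal, and they are shut off when cells move on to the formative and primed states marked by Otx2 and Fgf5. Nanog, Zfp42, Prdm14, Tbx3, Klf4 and Dppa3 are known to vary from cell to cell in serum cultures. A bulk measurement cannot tell fewer cells of a type from less RNA per cell, and this holds for every value below.

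The counted reads per library ran from 22899107 to 30206085, and the replicates of a group differed by far more than counting error, at 19.2 (+dox) and 13.2 (−dox) chi-square units for each degree of freedom over 13911 genes. Whether the replicates came from separate cultures is not stated beyond the word biological, so p-values measure the spread between these libraries. The core pluripotency genes that define the labelled cell type were abundant, with Pou5f1 at a mean of 1201 CPM with dox and 983 CPM without. CPM are counts scaled to library size with TMM factors (trimmed mean of M-values). Ctcf itself, whose counts cannot separate transgene from endogenous reads, was at 327 and 329 CPM with dox and 295 and 304 CPM without (log2 fold change 0.13, SE 0.09, edgeR adjusted p = 0.475). These counts alone therefore do not show the induction of the transgene. The paper, which also did not call Ctcf, reports the glutamate codon in part of the RNA reads over that position with dox. It also reports the tagged transgene protein by western blot. The 18 fibroblast markers, which stand for the feeders, summed to 3355 CPM in +dox replicate 1 and to between 1572 and 1818 CPM in the other 3 libraries. Most of each sum was Fn1, at 2326 and 1357 CPM with dox and at 1238 and 1472 CPM without. In 15 of the 18 markers both +dox libraries were above both −dox libraries, beside 23.3% of all genes. By the sum +dox replicate 1 stands apart, and results that rest on it are given with and without it.

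Promoter sequences were available for 6 of the 10 genes: Zfp42, Tfcp2l1, Nanog, Klf4, Klf2 and Esrrb. The 3 printed here belong to Zfp42 and Tfcp2l1, the genes whose +dox and −dox libraries did not overlap, and to Nanog, which holds the letters of a CTCF core motif. Each is the 250 bases before a RefSeq start in GRCm38.p6, written 5′ to 3′ on the gene's strand, with motif matches in capitals. The Zfp42 window lies at chr8:43307010-43307259 on the minus strand, the Tfcp2l1 window at chr1:118627695-118627944 on the plus strand, and the Nanog window at chr6:122707239-122707488 on the plus strand.
Zfp42: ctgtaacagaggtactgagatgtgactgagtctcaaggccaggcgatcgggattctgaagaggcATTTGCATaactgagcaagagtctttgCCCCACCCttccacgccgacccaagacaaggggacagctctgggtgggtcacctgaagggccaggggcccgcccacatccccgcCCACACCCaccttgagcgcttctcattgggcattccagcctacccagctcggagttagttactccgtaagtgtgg
Tfcp2l1: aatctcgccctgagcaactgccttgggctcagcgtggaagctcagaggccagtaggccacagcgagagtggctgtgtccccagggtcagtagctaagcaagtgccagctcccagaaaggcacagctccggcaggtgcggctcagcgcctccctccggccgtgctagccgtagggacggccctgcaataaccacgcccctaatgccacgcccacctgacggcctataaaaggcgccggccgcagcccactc
Nanog: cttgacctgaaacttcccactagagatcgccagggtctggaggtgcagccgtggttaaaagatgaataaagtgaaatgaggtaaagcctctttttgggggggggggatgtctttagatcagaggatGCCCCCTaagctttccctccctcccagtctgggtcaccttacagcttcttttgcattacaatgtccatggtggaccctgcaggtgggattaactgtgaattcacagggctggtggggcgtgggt

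Both strands were searched for 5 motifs, of which ATGCAAAT (the octamer bound by Oct4, the product of Pou5f1) occurs in 1.6% of 32851 such windows, CCNCACCC (Klf factors) in 14.9%, AAGGTCA (Esrrb) in 4.08%, TTCNNNGAA (Stat3) in 7.02% and AGGGGGC (the core of the CTCF motif) in 9.43%. The Zfp42 window holds the octamer letters at −186 to −179 and the Klf letters at −159 to −152 and −75 to −68, counted back from the start site. The printed Nanog window holds the CTCF core letters at −124 to −118, and the same letters lie at −200 to −194 in a window of another Nanog start. The Klf4 window, not printed, holds them at −104 to −98. Of the Esrrb windows, also not printed, the upstream window holds the Klf letters at −39 to −32 and the Stat3 letters at −178 to −170. The other Esrrb window holds the Klf letters at −105 to −98. The Tfcp2l1 window holds none of the 5, which says only that these letters are not in this stretch. It is rich in CpG, with 16 CpG and 65.2% GC against a median of 6 CpG and 52.4% GC over all windows, while the Zfp42 window has 9 CpG and the Nanog window 3. A match of letters is a description, and no binding was measured here.

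The naive factors were highly expressed in every library. Per length, in TMM-scaled RPKM averaged over the 4 libraries, Zfp42 came first with 283 RPKM, ranking 110 among the 20044 genes tested, ahead of Nanog (261), Klf5 (249.6), Esrrb (236), Klf2 (217) and Klf4 (189.9). Neighbours in this order overlapped in both groups down to Klf2, and Klf2 and Klf4 overlapped with dox only. A second tier followed with Dppa3 at 79.4 RPKM, Tbx3 at 54.8, Prdm14 at 28.0 and Tfcp2l1 at 23.2. Between Klf4 and Dppa3, Dppa3 and Tbx3, and Tbx3 and Prdm14 the levels did not overlap in either group, while Prdm14 and Tfcp2l1 overlapped in both. RPKM here use the exon length in the count tables. In the GENCODE M1 annotation of the same build, 2 of the 10 genes share exon bases with another gene, Tfcp2l1 with a U1 gene on its own strand and Tbx3 with Gm2301 on the other strand, and whether the counting used strand is not stated, so their levels are less certain.

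**Figure D1:**
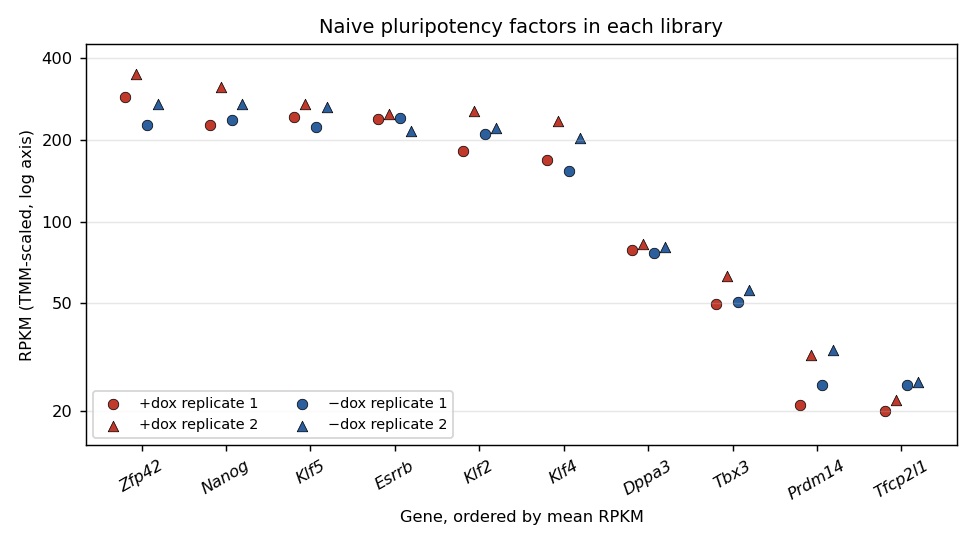
TMM-scaled RPKM of each naive factor (log axis) in the 4 libraries, with genes ordered by their mean, circles for replicate 1, triangles for replicate 2, red for +dox and blue for −dox. The first 6 genes lie between 154 and 348 RPKM and the last 4 below 100, red and blue symbols mix in most genes, and they separate in Zfp42 and Tfcp2l1.

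The main comparison asked whether naive factor RNA differed between cells with and without dox. None of the 10 genes was differentially expressed at an adjusted p below 0.01 (edgeR quasi-likelihood test), beside 120 genes or 0.599% of the 20044 tested, 0.0798% higher and 0.519% lower with dox. Among the 5117 genes averaging 50 CPM or more, a range that holds all 10, the called share was 0.684%. Unadjusted p-values under 0.05 were found for 2 of the 10 genes, Zfp42 and Tfcp2l1, beside 17.8% of all genes. DESeq2 also called 0 of the 10, beside 2.71% of the genes to which it gave an adjusted p. With 10 genes and shares this low, a count of 0 says little. The 95% interval of the change lay within 1.5-fold in either direction for 9 of 10 genes, and that of Zfp42 reached 1.51-fold.

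Zfp42 encodes Rex1, a zinc finger protein of the Yy1 family and a standard marker of naive cells. It lies at chr8:44380421-44392363 in mm9 (minus strand, NM_009556), and it was at 517 and 624 CPM with dox and at 407 and 486 CPM without. Both +dox libraries were above both −dox libraries. The log2 fold change was 0.35 (SE 0.11, 95% interval 0.11 to 0.60), with a p of 0.0077 and an adjusted p of 0.111 by edgeR. The ratio of +dox to −dox within each table was nearly the same, 0.35 on the log2 scale for replicate 1 and 0.36 for replicate 2.

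Tfcp2l1, a grainyhead-family factor downstream of LIF and Stat3, had the opposite direction. This gene (chr1:120524522-120581745, plus strand, NM_023755) was at 187 and 205 CPM with dox and at 231 and 238 CPM without. Both +dox libraries were below both −dox libraries. The log2 fold change was -0.26 (SE 0.09, 95% interval -0.46 to -0.06), with an edgeR p of 0.0144 and an adjusted p of 0.148, and the within-table log2 ratios were -0.31 and -0.22. The ratio of Zfp42 reads to Tfcp2l1 reads, which does not depend on library scaling, was 2.77 and 3.05 with dox and 1.76 and 2.04 without. These 2 genes were paired because their groups separate in opposite directions, so the ratio had to separate as well and adds no support. Of the 10 genes, 2 had groups that did not overlap, Zfp42 (higher) and Tfcp2l1 (lower). Across all genes tested, 47% did not overlap, 23.3% higher and 23.7% lower, and among those averaging 50 CPM or more the share was 55.8%.

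The 3 Krüppel-like factors bind similar CACCC-type sites and can stand in for one another in self-renewal. Klf2 (chr8:74842961-74845553, plus strand, NM_008452) was at 328 and 462 CPM with dox and at 379 and 401 CPM without. Its +dox libraries lay on either side of the −dox libraries, with a log2 ratio of -0.21 in replicate 1 and 0.21 in replicate 2 and a log2 fold change of 0.02 (SE 0.13, 95% interval -0.26 to 0.30). Klf4, a direct target of Stat3 (chr4:55540009-55545347, minus strand, NM_010637), was at 513 and 709.85 CPM with dox and at 467 and 618 CPM without. The groups overlapped, although each +dox library exceeded the −dox library of the same number, by 0.14 and 0.20 on the log2 scale, and the log2 fold change was 0.17 (SE 0.15, 95% interval -0.15 to 0.50). Klf5 (chr14:99697910-99712628, plus strand, NM_009769) was at 415 and 465 CPM with dox and at 383 and 452 CPM without, with overlapping groups and a log2 fold change of 0.08 (SE 0.10). The adjusted p-values of edgeR for Klf2, Klf4 and Klf5 were 0.960, 0.608 and 0.735.

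Nanog, Esrrb and Tbx3 are further parts of the same network. Nanog, the homeodomain factor whose excess frees cells from LIF (chr6:122657583-122664651, plus strand, NM_028016), was at 499 and 688 CPM with dox and at 521 and 598 CPM without. Its +dox replicate 1 was the lowest library and its +dox replicate 2 the highest, so the −dox libraries fell between them. The log2 fold change was 0.09 (SE 0.13, 95% interval -0.20 to 0.37, edgeR adjusted p = 0.759). Esrrb, an orphan nuclear receptor (chr12:87702067-87862578, plus strand, NM_001159500), had the most reads of the 10 in every library. It was at 1025 and 1069.7 CPM with dox and at 1029.9 and 927 CPM without, and its log2 fold change was 0.10 (SE 0.08, 95% interval -0.09 to 0.28). Tbx3, a T-box repressor (chr5:120120871-120134733, plus strand, NM_198052), was at 236 and 301 CPM with dox and at 240.3 and 268 CPM without. The groups of both genes overlapped, with edgeR adjusted p-values of 0.610 for Esrrb and 0.740 for Tbx3, whose log2 fold change was 0.08 (SE 0.12).

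Prdm14 and Dppa3 are shared with the germ line. Prdm14, a PR-domain protein that represses FGF signalling and de novo DNA methyltransferase genes (chr1:13103509-13117244, minus strand, NM_001081209), was at 54.5 and 83.2 CPM with dox and at 64.9 and 87.0 CPM without. It had the widest interval of the 10, with a log2 fold change of -0.14 (SE 0.18, 95% interval -0.53 to 0.25, edgeR adjusted p = 0.735), and the lowest single count, 1228 reads in +dox replicate 1. Dppa3, also named Stella, protects DNA methylation in the early embryo and is not itself a sequence-specific transcription factor (chr6:122576442-122580289, plus strand, NM_139218). It was at 63.7 and 66.9 CPM with dox and at 62.0 and 65.2 CPM without. All 4 libraries lay close together, with a log2 fold change of 0.04 (SE 0.11, 95% interval -0.20 to 0.27, edgeR adjusted p = 0.891) and log2 ratios of 0.04 in both tables.

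**Figure D2:**
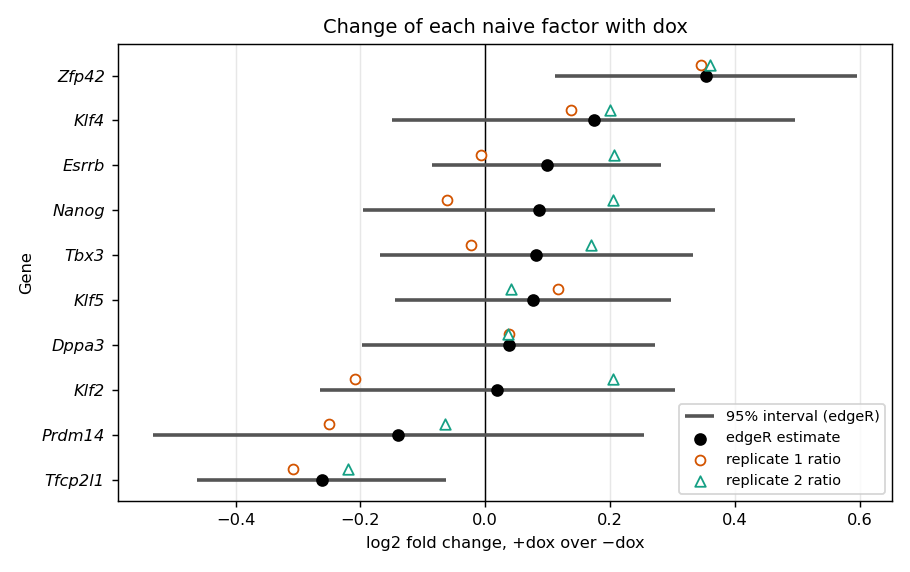
Log2 fold change of each naive factor, +dox over −dox, with the edgeR estimate (black point), its 95% interval (bar) and the ratio within replicate 1 (circle) and within replicate 2 (triangle). The bars of Zfp42 and Tfcp2l1 exclude 0, on opposite sides, and the circle and triangle fall on opposite sides of 0 for Klf2, Nanog, Tbx3 and Esrrb.

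In 8 of 10 genes, all but Zfp42 and Tfcp2l1, the largest gap between replicates exceeded the change with dox on the log2 scale. The larger of 2 gaps between single libraries was set against a difference of group means, which favours the gap. The share over all genes was not computed for this count or for the order of the replicates, so neither is particular to the 10 genes on these values. Replicate 2 was above replicate 1 in 10 of 10 genes with dox and in 9 of 10 without, Esrrb being the exception, and the 10 genes together took 0.377% and 0.461% of counted reads with dox and 0.383% and 0.422% without. Compared within tables, the median log2 ratio of the 10 was -0.01 in replicate 1 and 0.18 in replicate 2, with 4 genes higher in both (Klf4, Klf5, Zfp42 and Dppa3), 2 lower in both (Tfcp2l1 and Prdm14) and 4 of opposite sign (Nanog, Klf2, Esrrb and Tbx3). In the joint fit 8 genes were above 0 and 2 below, with a median log2 fold change of 0.08, beside a median of 0.01 over all genes.

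The direction of the median depended on single libraries, from 0.20 without +dox replicate 1 to -0.09 without +dox replicate 2. Without +dox replicate 1, the library with the high fibroblast sum, 9 of 10 genes were higher and Zfp42 (log2 fold change 0.48, adjusted p = 6.84e-04) and Klf4 (0.39, adjusted p = 0.00924) passed the edgeR test, beside 4.92% of all genes. The +dox arm is then 1 library, assumed to vary as the −dox libraries do, and the same holds for the other group whenever one of its libraries is left out. In that comparison 9 genes did not overlap, 8 higher and 1 lower, beside 72.7% of all genes and 37.3% higher. Without +dox replicate 2, 3 genes were higher and 7 lower, 0 of the 10 were called beside 4.37% of all genes, and 6 did not overlap, 1 higher and 5 lower, beside 72.7% of all genes and 37.8% higher. Without −dox replicate 1, 4 genes were higher and 6 lower, and without −dox replicate 2, 9 were higher and 1 lower, and in both cases edgeR called 0 genes in the whole table. With 1 library left out, Zfp42 ranged from 0.21 to 0.49 and Tfcp2l1 from -0.33 to -0.20 on the log2 scale. Their signs could not change, because the groups of these genes do not overlap.

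The 3 core pluripotency factors, which naive and primed cells share, were compared as the nearest reference. Pou5f1 (log2 fold change 0.29, adjusted p = 0.0872), Sall4 (0.31, adjusted p = 0.0935) and Sox2 (0.15, adjusted p = 0.408) were each higher in both +dox libraries than in both −dox libraries, and 0 of 3 passed the edgeR test. Groups separated in that direction in 23.3% of all genes, and in either direction in 55.8% of genes averaging 50 CPM or more. Relative to them, the summed CPM of the naive factors was 1.40 and 1.67 with dox and 1.66 and 1.74 without. The lowest ratio was that of +dox replicate 1, the library with the most fibroblast RNA. The part of the feeders in these ratios was not tested.

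**Figure D3:**
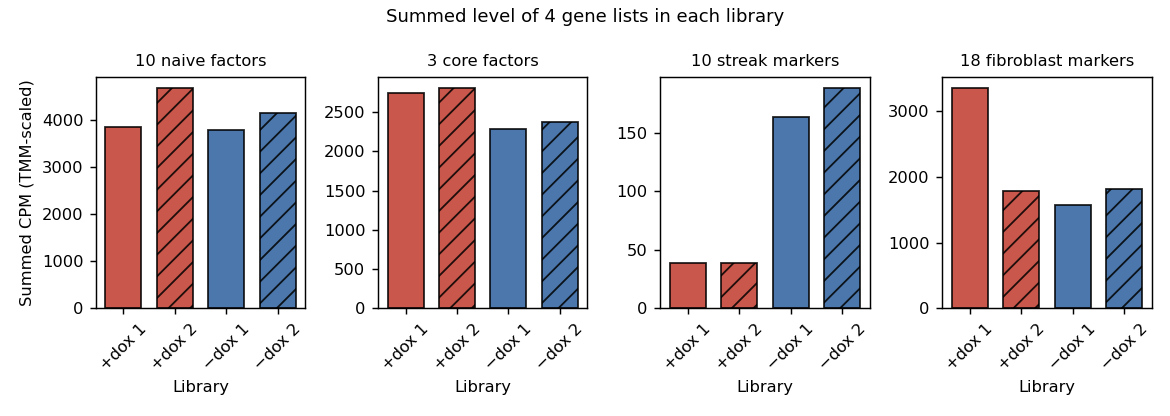
Summed TMM-scaled CPM of the 10 naive factors, the 3 core factors, 10 primitive streak markers and 18 fibroblast markers in each of the 4 libraries, on linear axes from 0 that differ between panels (red +dox, blue −dox, hatched replicate 2). The naive sums run from 3784 to 4675 CPM and overlap between groups, the streak sums are 39.1 and 39.0 CPM with dox against 163 and 189 CPM without, and 1 +dox library holds the highest fibroblast sum.

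The pathways on either side of the naive factors were read from lists of known genes, each beside the median log2 fold change of 0.01 over all genes. These lists and those below were chosen with earlier results of these data known, so their counts are not independent of that choice. Of 10 genes of the LIF pathway, from the receptor to Stat3 and its feedback genes, 0 passed the edgeR test and the median log2 fold change was -0.10. Its largest values were those of the kinase Jak2 (-0.46, adjusted p = 0.362) and of Socs3, the feedback inhibitor induced by Stat3 (-0.40, adjusted p = 0.202). Of 18 other genes known to be higher in naive than in primed cells, 15 had log2 fold changes above 0, with a median of 0.26, and 1 passed. This was Spp1, which encodes the secreted protein osteopontin, at 412 and 402 CPM with dox and at 245 and 288 CPM without (log2 fold change 0.61, SE 0.10, adjusted p = 0.00667). Of 22 paralogues of the naive factors, 0 passed, with a median of -0.01 and the largest values in Klf10 (-0.37, adjusted p = 0.0651) and Tbx2 (0.33, adjusted p = 0.625).

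Genes that oppose or follow the naive state were read in the same way. Of 9 regulators of the exit from naive pluripotency, 0 passed the edgeR test, with a median log2 fold change of -0.05, and the largest values were those of Fnip1, a folliculin partner (-0.49, adjusted p = 0.0966), and Tcf7l1, the Wnt pathway repressor of Esrrb and Nanog (0.41, adjusted p = 0.110). Of 12 formative and primed genes, 10 had values below 0, with a median of -0.28, and Fgf5 passed. Fgf5, the growth factor used as a marker of the primed epiblast, was at 12.7 and 5.69 CPM with dox and at 36.9 and 35.3 CPM without (log2 fold change -1.97, SE 0.27, adjusted p = 0.0029). DESeq2 gave Fgf5 an adjusted p of 0.0112, above the threshold.

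Markers of differentiating cells and of the feeders were read last. Of 10 primitive streak markers 6 passed the edgeR test as lower (T, Eomes, Mixl1, Lhx1, Fgf8 and Cer1), from -1.71 for Eomes to -5.55 for Cer1 on the log2 scale, and the median over the list was -2.04. Of 8 primitive endoderm markers 3 passed as lower, Gata6 (-2.16), Sox17 (-2.57) and Foxa2 (-2.79), while 4 were above 0 without passing, up to 0.90 for Pdgfra, and the median was -0.51. The Pdgfra value rests on +dox replicate 1, with a log2 ratio of 1.49 in replicate 1 and -0.38 in replicate 2. Of 18 fibroblast markers 0 passed and all 18 were above 0, with a median of 1.36 that was 0.44 without +dox replicate 1 and 1.89 without +dox replicate 2, and their median log2 ratio was 1.78 in replicate 1 and 0.45 in replicate 2. Among markers averaging 1 CPM or more the largest values were those of Postn (2.03, adjusted p = 0.0407) and Dcn (1.65, adjusted p = 0.0477), and no marker of the list was at 0 in any library. Without +dox replicate 1 the median log2 fold changes were -2.06 (streak), -0.77 (endoderm), -0.43 (formative and primed) and 0.31 (other naive genes). Without +dox replicate 2 they were -2.03, -0.49, -0.22 and 0.13. The part of these cells in the values of the naive factors was not tested.

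**Figure D4:**
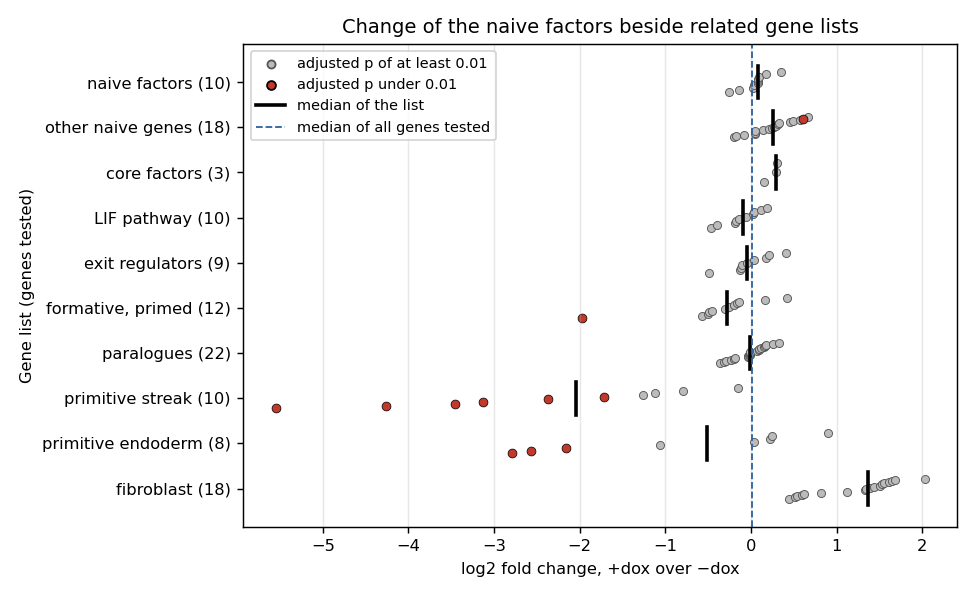
Log2 fold changes (+dox over −dox) of the naive factors and of 9 related gene lists, 1 point per gene, with red points for an edgeR adjusted p under 0.01, black bars for list medians and a dashed line for the median of all genes. The naive factors lie between -0.26 and 0.35 around a median of 0.08, the primitive streak markers reach down to -5.55, and the fibroblast markers lie at 0.44 and above.

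Nanog and Dppa3 lie 77294 bp apart on chromosome 6 in mm9. Within 100 kb of the 10 genes lie 15 other genes that were tested. Groups did not overlap in 7 of them, beside 47% of all genes. Of the 15, 1 passed the edgeR test, beside 0.599% of all genes. This was Slc2a3, a glucose transporter gene 13176 bp from Nanog, at 728 and 825 CPM with dox and at 1153 and 1386 CPM without (log2 fold change -0.71, SE 0.10, adjusted p = 0.00365). Gdf3, a TGF-β family gene of pluripotent cells 16353 bp from Dppa3, was at 268 and 289.8 CPM with dox and at 199 and 190.3 CPM without (0.52, SE 0.09, adjusted p = 0.0132). The log2 fold changes of Nanog and Dppa3, which lie between Gdf3 and Slc2a3, were 0.09 and 0.04. Differences between neighbours were not tested.

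By Pearson's r over the log2 CPM of 4 libraries, the genes averaging 10 CPM or more that were most like Zfp42 were Cd37, Arv1 and Ppp1r15a, all with r = 0.9996. The 4 points share their libraries, and 417 of 9969 genes reached 0.95, so this is a description of 4 libraries.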

How the data were processed

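Polyadenylated RNA of 4 libraries was sequenced, 2 with and 2 without dox. After trimming (cutadapt) and alignment to mm9 (TopHat2), the authors discarded PCR duplicates and used HOMER for unique reads on exons, and the deposited values are raw counts per gene, not normalized, in 1 table per replicate. Tool versions, and whether counting was strand-specific, are not given in the sources used here.

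Rows were matched across tables by symbol, since 547 genes, none of them among the 10, carry a different transcript in the 2 tables. Groups came from the sample labels. Every gene with a read in any library entered the fit (20044 genes, minimum count 1), and counts were scaled by TMM and tested in edgeR 4.0.16 under R 4.3.3 by its quasi-likelihood F-test at the package defaults, with Benjamini-Hochberg adjustment over all genes and a threshold of 0.01. Intervals are 95% and use the test's degrees of freedom. Log2 CPM use a prior count of 2. Within-table ratios come from 1 library per group and have no replicate check, and no set test was run. DESeq2 1.42.0 was run at its defaults as an alternative. The test was first run on simulated counts with known changes. The alternatives were DESeq2, adjusted deviances, a replicate block, other scaling, filterByExpr, a threshold of 0.05 and leaving out each library. The counts of genes called per list and of genes with separated groups under the alternatives were added after the data had been seen.

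The 10 genes and all lists were chosen with earlier results of these data known. All 10 are named, and of each other list the genes that passed, or if none did the 2 with the largest absolute log2 fold change at a mean of at least 1 CPM. The 3 core factors and Ctcf are named as references, the 3 genes most like Zfp42 by their correlation, Slc2a3 as the neighbour that passed, and Gdf3 was chosen after its values were seen. The ChIP-seq and Hi-C data were not analysed here.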

Additional observations from a re-analysis of the deposited data

How the results depend on the processing

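The number of genes called differed between methods. DESeq2 called 375 genes in all (118 higher, 257 lower), a threshold of 0.05 gave 573 (186 higher, 387 lower), filterByExpr gave 11 (0 higher, 11 lower) over 15278 genes, and total counts in place of TMM left 5 higher. With adjusted deviances edgeR called 0 genes, 0 higher and 0 lower, while 3254 genes and 2 of the 10 naive factors had an unadjusted p under 0.05. Leaving out 1 library gave 0 to 987 genes (0 to 519 higher, 0 to 693 lower) and 0 to 2 naive factors called, with 4 to 9 naive factors whose groups did not overlap. With +dox replicate 1 or +dox replicate 2 left out, 9 and 6 naive factors did not overlap, beside 72.7% of all genes in each case. With −dox replicate 1 or −dox replicate 2 left out, 4 and 5 did not overlap. The share over all genes was not computed for those 2 cases, so these counts have no reference. The cause of the differences between methods was not tested.

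The replicate number does not mark a shared batch in the labels and there are 2 pairs, so the pairing was not used. The deviations of same-numbered libraries from their group means correlated at 0.196 over 13911 genes and at 0.694 over the 10 naive factors. A fit with a replicate block called 786 genes (316 higher, 470 lower) and 1 of the 10, Zfp42, at a log2 fold change of 0.35 and an adjusted p of 0.00296. Klf2 was then at -0.0010. The block also called 2 of 3 core factors, 4 of the 18 other naive genes, 3 formative and primed genes, 1 exit regulator, 1 paralogue and 10 of 18 fibroblast markers.

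Scaling to total counts put Klf2 at -0.024, Dppa3 at -0.0060 and the replicate 2 ratio of Klf5 at -0.0050 on the log2 scale, against values near 0 with TMM. With 1 library left out, the median log2 fold change ran from -0.091 to 0.200 for the naive factors, -0.135 to -0.0194 for the LIF pathway, 0.13 to 0.31 for other naive genes, 0.22 to 0.25 for the core factors (0.29 with all libraries), -0.129 to 0.068 for exit regulators, -0.43 to -0.22 for formative and primed genes, -0.041 to 0.034 for paralogues, -2.06 to -2.03 for streak markers, -0.77 to -0.49 for endoderm markers and 0.44 to 1.89 for fibroblast markers. For single genes the ranges were -0.16 to 0.30 for Nanog, -0.25 to 0.24 for Klf2, -0.079 to 0.39 for Klf4, -0.038 to 0.20 for Klf5, -0.10 to 0.24 for Tbx3, 0.21 to 0.49 for Zfp42 and -0.48 to 0.13 for Prdm14. The log2 fold changes of Esrrb and Zfp42 stayed above 0, and that of Tfcp2l1 below 0, under every alternative run. Within replicate 1, however, the log2 ratio of Esrrb was -0.0066. For Zfp42 and Tfcp2l1, whose groups do not overlap, leaving out a library could not change the sign. Each of the 10 genes had at least 1228 reads in each library.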
